A study of Mus musculus with 2 samples.

Results

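The 3 Rbfox genes of the mouse, Rbfox1, Rbfox2 and Rbfox3, encode a family of RNA-binding proteins, and their own transcripts were looked for among the RNA that was crosslinked in neurons. Members were chosen by name, and reads were assigned by position: a read counted when it lay wholly inside a window around the gene and on the gene's strand. The windows, given in coordinates of the mouse build mm9, were chr16:5763000-7413000 on the plus strand for Rbfox1 (1650 kb), chr15:76907500-77139500 on the minus strand for Rbfox2 (232 kb) and chr11:118349000-118773000 on the minus strand for Rbfox3 (424 kb). They held 151 of 64820 reads of the anti-Rbfox1 library (0.233%, exact 95% interval 0.197 to 0.273) and 2 of 569 reads of the anti-Flag library (0.351%, 0.0426 to 1.26). The ends of a window are not the ends of a transcript, and exons, introns and untranslated regions were not assigned, since no annotation of that build was used.

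Both libraries were made from cultured mouse forebrain neurons at 14 days in vitro that had been exposed on ice to 500 mJ/cm2 of ultraviolet light at 254 nm. The material released in 1 min by a buffer of 0.1% Triton X-100, 20 mM HEPES and 150 mM NaCl, labelled as the cytoplasmic fraction, was precipitated. The only named difference was the antibody of the precipitation, anti-Rbfox1 in the one and anti-Flag, the control, in the other. In iCLIP (individual-nucleotide resolution crosslinking and immunoprecipitation) the base before the start of a read marks where protein and RNA were joined, and that base is called the crosslink position here. There was 1 library per antibody and no replicate, the labels do not say how many cultures each library pooled, and the intervals given cover counting error only. The deposited reads had been filtered: each library holds 0 clusters with a single crosslink position and 0 reads identical to another. A count of 0 below therefore means that no group of at least 2 neighbouring positions was listed, and no limit on the level follows from it.

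Rbfox proteins carry a single RNA-recognition motif that binds the short element GCAUG. In the nucleus they set the inclusion of alternative exons, and forms that stay in the cytoplasm are known to bind the 3′ untranslated regions of mRNAs and to affect their stability and translation. Members of the family are known to act on the splicing of their own and each other's transcripts. Rbfox1 (older names A2bp1 and fox-1) is found mainly in neurons, heart and muscle, Rbfox2 (Rbm9) in many tissues, and Rbfox3 is the antigen NeuN, the common marker of mature neurons.

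The first comparison asked how much of each library came from each gene. Rbfox1 had 91 anti-Rbfox1 reads at 89 crosslink positions in 34 clusters, where a cluster joins reads whose crosslink positions lie within 20 nt of each other. Rbfox2 had 39 reads at 31 positions in 5 clusters, and Rbfox3 had 21 reads at 15 positions in 6 clusters. All 3 windows thus held reads in the anti-Rbfox1 library, and the longest window held the most reads but not the deepest clusters. In the control, Rbfox1 had 2 reads in 1 cluster, and Rbfox2 and Rbfox3 had 0 reads each.

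The control was too small to separate the antibodies at these genes. Rbfox1 made up 0.140% of the anti-Rbfox1 reads (0.113 to 0.172) and 0.351% of the control reads (0.0426 to 1.26), a difference of -0.21 percentage points (two-sided Fisher's exact p = 0.194, adjusted over the 3 genes 0.583). Rbfox2 made up 0.0602% (0.0428 to 0.0822) against 0, and Rbfox3 0.0324% (0.0201 to 0.0495) against 0, each with an adjusted exact p of 1. At equal shares the control would have held 0.799 reads of Rbfox1, 0.342 of Rbfox2 and 0.184 of Rbfox3, so even 0 control reads gave an exact p of 1 for each gene. A higher share in the anti-Rbfox1 library was thus not detectable at this depth. These shares are of listed reads, and isolated reads, which the filter removed, were not counted in either library. The test and the intervals treat reads as independent, but reads of a cluster are not, and no listed cluster has fewer than 2 reads. The p-values are therefore only a rough guide. The lower Rbfox1 share rested on 1 control cluster, and with the window narrowed by 10 kb at each end, which removes that cluster, the difference was 0.12 points in the other direction.

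The opposite strand of the same windows held 0 reads in both libraries, against 91, 39 and 21 anti-Rbfox1 reads on the strand of the gene. The listed reads of the family were thus all on the transcribed strand of the genes. The flanks were empty too. In the 100 kb beyond either end of each window, the strand of the gene held 0 anti-Rbfox1 reads, and the next read downstream lay 1207.7 kb past the Rbfox1 window, 340 kb past that of Rbfox2 and 133 kb past that of Rbfox3. No read crossed a window edge. Empty stretches of that length are common, since only 9.13% of 100 kb tiles of 1 strand held any anti-Rbfox1 read genome-wide. The empty flanks are therefore not particular to these genes, and the 0 on the opposite strand was not set beside a genome share.

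**Figure D1:**
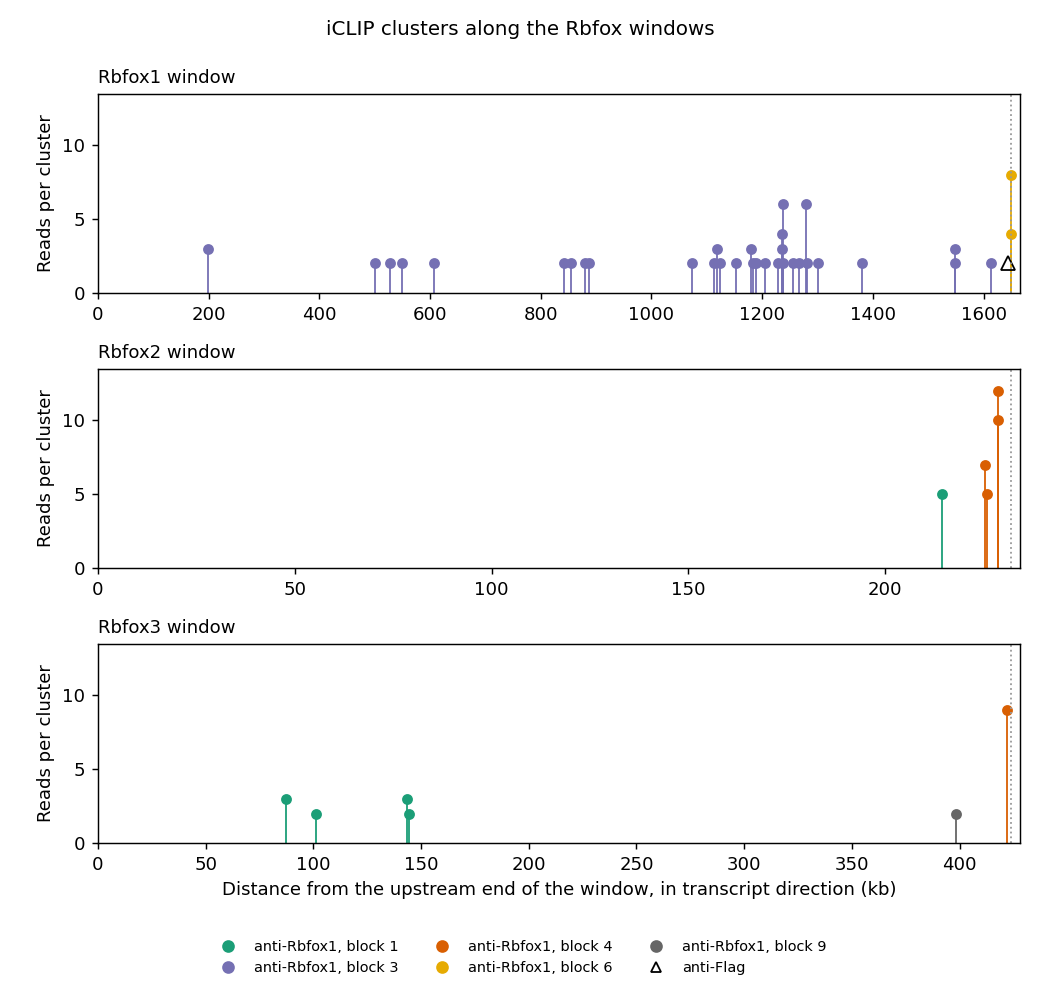
Reads per cluster (vertical axis) against distance from the upstream end of the window in the direction of transcription (horizontal axis, kb, to a different scale for each gene). Circles on stems are anti-Rbfox1 clusters coloured by block of file lines, the open triangle is the anti-Flag cluster, and the dotted line is the downstream end of the window; Rbfox1 shows 32 shallow clusters along its length and 2 at its end, while the 5 Rbfox2 clusters lie in the last 20 kb.

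The genes differed in how the reads were laid out. Rbfox1 reads were scattered: 24 of its 34 clusters held 2 reads, 5 held 3, 2 held 4 and only 3 held 5 or more. All 5 Rbfox2 clusters held 5 reads or more, and of the 6 Rbfox3 clusters 3 held 2 reads, 2 held 3 and 1 held 9. Over the whole anti-Rbfox1 library, 27.1% of clusters held at least 5 reads. The highest cluster of each gene took 8.79% of the Rbfox1 reads, 30.8% of the Rbfox2 reads and 42.9% of the Rbfox3 reads. These shares are a description without a test, since the clusters were picked as the highest and a gene with few clusters has a large share in its highest by construction.

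By reads, the highest cluster lay close to the downstream end in each window. It was 1.35 kb from that end in Rbfox1, 3.45 kb in Rbfox2 and 2.16 kb in Rbfox3, in windows of 1650, 232 and 424 kb. By crosslink positions the Rbfox1 cluster, with 6, was level with 2 clusters lying 412.6 and 371.6 kb before the end, in a block that keeps 1 read per position on this strand. The last 10 kb held 12 of 91 Rbfox1 reads (13.2%), 34 of 39 Rbfox2 reads (87.2%) and 9 of 21 Rbfox3 reads (42.9%), while making up 0.606%, 4.31% and 2.36% of the window. The first 10 kb held 0 reads in all 3. The distance to the annotated end of the transcripts was not measured.

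The downstream end of Rbfox1 carried a pair of clusters. The upstream one of them, chr16:7411645-7411693, held 8 reads at 6 positions, with 3 reads at crosslink position 7411656 and 1 read each at 7411644, 7411654, 7411655, 7411657 and 7411663. Most of its reads thus fell on 4 neighbouring bases. It was matched or exceeded by 1611 of the 10134 clusters of the library (15.9%). The other, chr16:7412239-7412281, followed after a gap of 545 nt and held 4 reads at 4 positions from 7412238 to 7412252.

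Rbfox2 had the deepest site of the family. At chr15:76910885-76910961, 12 reads lay at 9 crosslink positions spread over 36 nt, with 4 reads at 76910959 and 1 at each of the others. Of all anti-Rbfox1 clusters, 1012 (9.99%) held as many reads or more. Directly upstream in the direction of transcription, reads of the next cluster overlapped it by 4 nt: chr15:76910958-76911010 held 10 reads at 7 positions, 3 of them at 76910999 and 2 at 76910997. With clusters joined within 50 nt these became 1 cluster of 56.4% of the Rbfox2 reads. The 22 reads covered 126 nt together.

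A second group of Rbfox2 reads lay 2656 nt further upstream. It comprised chr15:76913667-76913702 with 5 reads at 4 positions and chr15:76914183-76914237 with 7 reads at 6 positions, 480 nt apart. Each of these had 1 position with 2 reads, at 76913690 and 76914209, and single reads elsewhere. The fifth Rbfox2 cluster, chr15:76924940-76925000, was 10.7 kb upstream of these, with 5 reads at 5 positions from 76924971 to 76925001. The first 214.5 kb of the window held no read.

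Rbfox3 had 1 deep site and 5 shallow ones. The site at chr11:118351115-118351163 held 9 reads at 5 positions, with 4 reads at 118351150, 2 at the neighbouring 118351151 and 1 each at 118351159, 118351160 and 118351164. As many reads or more were held by 1405 clusters of the library (13.9%). The 9 reads ended at 8 different 3′ bases, so reads sharing a crosslink position differed in length. The other sites were chr11:118374544-118374588 with 2 reads, a neighbouring pair at chr11:118628525-118628555 (2 reads) and chr11:118629708-118629745 (3 reads), and chr11:118671687-118671743 (2 reads) and chr11:118685615-118685652 (3 reads).

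**Figure D2:**
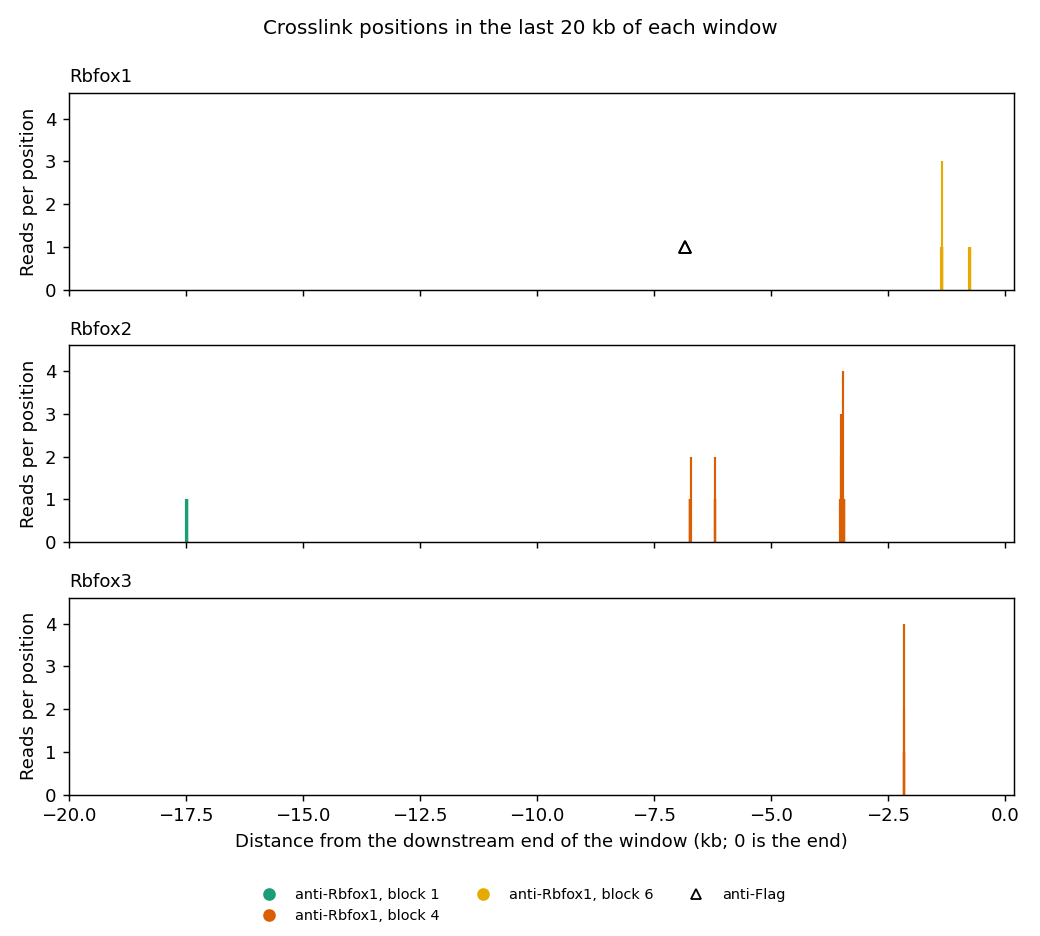
Reads at each crosslink position (vertical axis) against distance from the downstream end of the window (horizontal axis, kb, 0 at the end). Lines are anti-Rbfox1 positions coloured by block of file lines and the triangle marks the anti-Flag positions at 1 read each; the tallest lines, of 3 reads in Rbfox1 and 4 in Rbfox2 and Rbfox3, lie within 5 kb of the end.

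**Figure D3:**
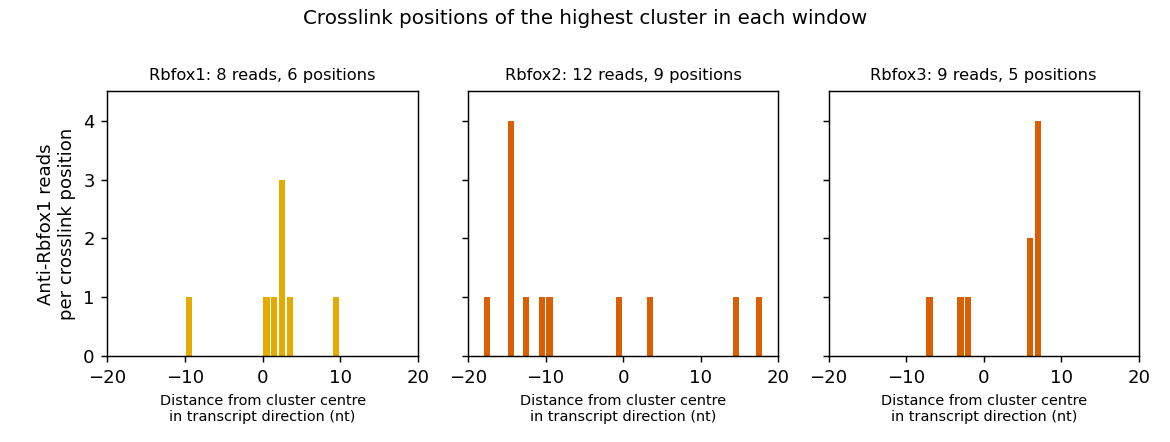
Anti-Rbfox1 reads per crosslink position (bars) in the highest cluster of each gene, against the distance from the middle of the cluster in the direction of transcription (nt). Rbfox2 spreads 12 reads over 9 positions, and in Rbfox3 6 of 9 reads lie on 2 neighbouring bases.

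The scattered Rbfox1 clusters were concentrated in one part of the window. The stretch from 1100 to 1400 kb after the upstream end, 18.2% of the window, held 19 of 34 clusters (55.9%) and 51 of 91 reads (56.0%). Its bounds were picked from these counts as the busiest part, so its share is high partly by construction and was not tested. The busiest 100 kb, from 1200 to 1300 kb, held 10 clusters and 31 reads. Of the 17 sections of 100 kb, 10 held clusters. With sections counted from the downstream end of the minus-strand windows, 1 of 3 did in Rbfox2 and 3 of 5 in Rbfox3. Counted from the upstream end, as in Rbfox1, more of the Rbfox3 sections held clusters, so these counts depend on where the sections start. Over the whole genome, 9.13% of 100 kb tiles of 1 strand held at least 1 anti-Rbfox1 read, a figure that includes tiles without any gene. The median gap between neighbouring Rbfox1 clusters was 18.3 kb and the longest 301.1 kb, between the first cluster at chr16:5962297-5962316 and the next.

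Within that part lay a group of 4 clusters over 1430 nt, chr16:6999548-7000977, with 15 reads. A cluster of 3 reads and one of 4 overlapped by 28 nt at its start. A cluster of 6 reads at chr16:7000440-7000502 followed after 813 nt, and one of 2 reads at chr16:7000940-7000977 after a further 437 nt. A second cluster of 6 reads lay at chr16:7041382-7041426. In all, 8 of the 34 Rbfox1 clusters (23.5%) had a neighbour within 1000 nt, against 4 of 5 in Rbfox2 and 0 of 6 in Rbfox3. That share was not counted over the whole library or by block, so no difference between the genes is read from it.

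Several Rbfox1 clusters had a regular spacing. In the cluster at chr16:7000440-7000502 the 6 reads started after positions 7000439, 7000441, 7000443, 7000445, 7000447 and 7000449, exactly 2 nt apart, and all 6 ended at the same base. The 6 reads at chr16:7041382-7041426 had the same form, with positions every 2 nt from 7041381 to 7041391 and 1 common end, and so did 4 reads from 6999587 to 6999593 and 3 reads from 7311467 to 7311471. These 4 clusters held 19 of the 91 Rbfox1 reads (20.9%) and 2 of the 3 Rbfox1 clusters of 5 reads or more, and without them 72 reads in 30 clusters were left. Of the Rbfox1 clusters with at least 3 positions, 4 of 10 had this spacing, against 0 of 5 in Rbfox2 and 0 of 1 in Rbfox3. Over the whole library the share was 2.49%, and in block 3, the part of the file that holds these clusters, 14.9%. On the plus strand of that block outside the Rbfox1 window it was 15.0% (9 of 60). The 10 Rbfox1 clusters include 2 of block 6. In block 4, which holds 4 of the 5 Rbfox2 clusters and the Rbfox3 one, the share was 0.784%. The 0 counts are therefore not read as particular to those genes. The pattern was noticed in these data and its cause was not tested.

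The lines of both files fall into blocks, in each of which the chromosomes start over, and no source used here says what a block stands for. Clusters of the Rbfox genes fell into 5 of the 11 blocks of the anti-Rbfox1 file, numbered here in file order. Rbfox1 had 79 reads in 32 clusters in block 3 and 12 reads in 2 clusters in block 6. Rbfox2 had 34 reads in 4 clusters in block 4 and 5 reads in 1 cluster in block 1. Rbfox3 had 10 reads in 4 clusters in block 1, 9 reads in 1 cluster in block 4 and 2 reads in 1 cluster in block 9.

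In each window the blocks followed one another along the transcript without mixing. The deep sites near the downstream end belonged to block 6 (Rbfox1) or block 4 (Rbfox2 and Rbfox3), and everything further upstream to block 1, 3 or 9. In Rbfox1, block 3 reached from 1450.7 to 36.0 kb before the downstream end and block 6 from 1.36 to 0.748 kb. In Rbfox2, block 1 lay 17.5 kb before the end and block 4 between 6.74 and 3.43 kb. In Rbfox3, block 1 lay between 336.7 and 279.6 kb, the block 9 cluster at 25.6 kb and the block 4 cluster at 2.16 kb.

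Rbfox1 made up a larger part of its main block than the other genes did of theirs. The main block was the one with most of a gene's clusters, picked after the values were seen. The shares are therefore high partly by construction, and the interval does not cover that choice. The Rbfox1 window is also the longest. Its main block, with 400 clusters, is smaller than block 4 for Rbfox2 (4980) and block 1 for Rbfox3 (3634). Of the 400 clusters of block 3, 32 (8%, 5.54 to 11.1) lay in its window, and so did 79 of the 1037 reads (7.62%), although the block holds only 1.60% of the library. When the genome was divided into 3198 tiles of 1650 kb on 1 strand, 2 tiles held 32 block 3 clusters or more, and the fullest held 39. Counting clusters of all blocks, 4 of these tiles (0.125%) matched the 34 of Rbfox1, whereas 170 (5.32%) matched its 91 reads. Rbfox2 and Rbfox3 made up at most 0.151% of the clusters of any block. Of tiles as long as their own windows, 339 of 22640 held as many reads as Rbfox2 and 606 of 12394 as many as Rbfox3. The tiles lie on a fixed grid whose edges can split a gene, whereas each window was set around its gene. These tile counts can therefore overstate how rare the counts of the windows are.

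**Figure D4:**
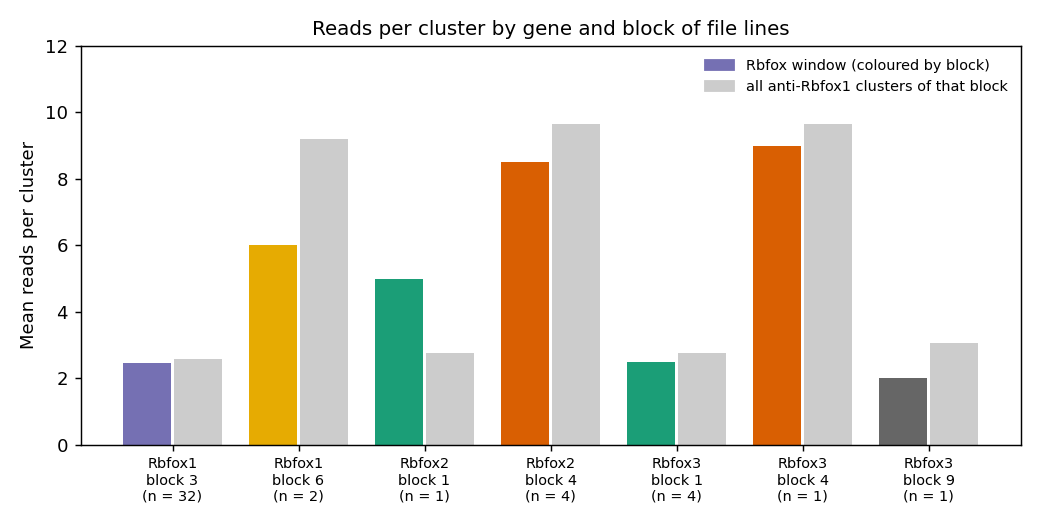
Mean anti-Rbfox1 reads per cluster (vertical axis, from 0) for each gene and block of file lines; coloured bars are the clusters in the window, with their number under the axis, and grey bars all clusters of that block. The 32 Rbfox1 clusters of block 3 average 2.47 reads beside 2.59 for the block, and the 4 Rbfox2 clusters of block 4 average 8.50 beside 9.65.

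The sizes of the clusters were set beside those of their blocks. Rbfox1 clusters of block 3 held 2.47 reads on average against 2.59 over the block, and 2 of 32 (6.25%) held 5 reads or more against 3.75%. The 4 Rbfox2 clusters of block 4 held 8.50 on average against 9.65, all 4 with at least 5 reads, where 45.7% of the block reached that size, as did the 1 Rbfox3 cluster of that block. In block 1, where 6.05% of clusters reached 5 reads, the Rbfox2 cluster did and 0 of 4 Rbfox3 clusters did. In block 6, with 45.9%, 1 of the 2 Rbfox1 clusters did, and in block 9, with 10.1%, the 1 Rbfox3 cluster did not. The blocks also differ in how reads were collapsed: in blocks 1 and 3 no reads on a strand share a leftmost base, so in Rbfox1, on the plus strand, each block 3 position holds 1 read by construction. How much of the difference in depth between the genes comes with the blocks cannot be told apart with these files.

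The 3′ ends of the reads were compared with those of the same block and strand. Of the 32 block 3 clusters of Rbfox1, 14 (43.8%) had all reads ending at 1 base, against 42.6% of the plus-strand clusters of that block. Of the family's clusters in block 4, 6 or 9, 0 of 8 did, where the shares over the same block and strand were 6.15%, 6.08% and 14.7%. Reads in the Rbfox1 window had a median length of 30 nt (quartiles 25 and 37), with a longest read of 63 nt, those in Rbfox2 27 nt (24 and 30) and those in Rbfox3 30 nt (25 and 33). The library median was 28 nt (23 and 35). By block, the Rbfox1 median was 32 nt in block 3 and 26 nt in block 6, against 29 and 28 nt over those blocks.

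The density of clusters did not separate the genes. Per 100 kb of window there were 2.06 clusters in Rbfox1, 2.16 in Rbfox2 and 1.42 in Rbfox3. The ratio was 0.956 for Rbfox1 over Rbfox2 (exact 95% interval 0.372 to 3.13), 1.46 for Rbfox1 over Rbfox3 (0.604 to 4.24) and 1.52 for Rbfox2 over Rbfox3 (0.368 to 5.99), each with an adjusted exact binomial p of 0.810 over the 3 pairs. Reads per 100 kb were 5.52, 16.8 and 4.95. Those ratios compare window lengths that include unbound sequence, and clusters of a gene share their library. The test and the intervals treat clusters as independent, but clusters were bunched within the windows, so the intervals are too narrow.

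The single control cluster of the family lay at chr16:7406170-7406192 in Rbfox1, 6.83 kb before the downstream end. Its 2 reads had crosslink positions 7406169 and 7406170 and ended at the same base. No anti-Rbfox1 read overlapped it or lay within 1000 nt, and the nearest were 29100 nt upstream and 5452 nt downstream. In the control file the cluster belongs to block 2, the block whose reads overlap those of anti-Rbfox1 block 3 (8 of 8 overlapping control reads). It was 1 of the 14 clusters of that control block (7.14%), beside 8% of block 3 in the anti-Rbfox1 library. With 1 control cluster, how alike these shares are cannot be told. None of the 45 anti-Rbfox1 clusters of the family overlapped a control read. Over the whole library such overlaps were counted by control reads, not by clusters. By matched block, 60 control reads overlapped block 1, 8 block 3, 71 block 4 and 2 block 9, where the library has 10134 anti-Rbfox1 clusters. The share of clusters with an overlap was not counted, so the 0 is not read as particular to the family.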

How the data were processed

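Each line of the deposited files is 1 aligned read, with its outer bases, its strand and another position. Bowtie and mm9 are named, without versions, per the submitters' processing notes. How reads were collapsed and filtered is not stated, but 0 clusters had fewer than 2 crosslink positions in either library, so isolated reads had been removed. These columns hold genome positions, which the authors deposited without a normalized or other measured value. That position lay 1 base before the 5′ end in 64820 of 64820 and 569 of 569 reads and was taken as the crosslink position. Reads per library, 64820 and 569, set the precision.

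Reads were joined into clusters within 20 nt (50 and 10 nt as alternatives), in Python 3.11.15 with pandas 2.3.3, numpy 2.4.6 and scipy 1.17.1, and plotted with matplotlib 3.10.9. A cluster belonged to a gene if it lay wholly inside its window. Of 10134 anti-Rbfox1 clusters, 3 hold reads of more than 1 block and were given the block of their first read. Shares have exact Clopper-Pearson 95% intervals. Because of that filter, no limit was given for a count of 0. Fisher's exact test (two-sided) compared the libraries, and exact binomial tests compared cluster densities, with Benjamini-Hochberg adjustment. Tiles run from the first base to the last deposited read of each chromosome. Every cluster of at least 5 reads was to be described, and the rest by count. The members and rules were chosen with earlier results of these data known. Gene names and synonyms come from the RefSeq table of GRCm38.p6, where all 3 matched, and no coordinate of that build was used. Transcript regions, the GCAUG element and other RNA-binding protein genes were not analysed here. No mm9 genome or annotation was used. Counting in the windows was tested on simulated, well-separated clusters of equal size. There, 60 of 60 planted clusters and 240 of 240 planted sense reads in the windows were counted. Overlapping clusters, clusters of 2 reads, blocks and tiles were not simulated.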

Additional observations from a re-analysis of the deposited data

How the results depend on the processing

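Of 54 alternative values, 41 counted as the same, 5 moved and 6 turned direction. Differences in share between the libraries and density ratios were the same if direction and side of the threshold were kept. Other percentages had to stay within their interval, cluster counts within a set factor and read lengths within their standard deviation. The last 2, density ratios with Rbfox2 for clusters of at least 5 reads, crossed the threshold of 0.05 in the adjusted exact binomial test. The Rbfox1 difference in share of reads, -0.21 percentage points, was 0.0428 in clusters of at least 5 reads and 0.12 with windows narrowed by 10 kb at each end, where no control read is left. Counting near-identical reads as 1 gave -0.113 (79 reads against 1). Rbfox2 clusters rose in number from 5 to 9 when joined within 10 nt, and clusters of at least 5 reads numbered 3 in Rbfox1 and 1 in Rbfox3. Joining within 50 nt put 56.4% of the Rbfox2 reads in 1 cluster. Block 3 held 94.1% of Rbfox1 clusters, beside 86.8% of its reads. The ratios of cluster density moved. For clusters of at least 5 reads, that crossing is not taken as a result. The blocks of the genes were collapsed differently, and the sizes had been seen. Rbfox1 over Rbfox2 was 1.13 with joining within 50 nt, 0.0844 for clusters of at least 5 reads and 4.16 with narrowed windows. Rbfox1 over Rbfox3 was 0.771 for clusters of at least 5 reads. Rbfox2 over Rbfox3 was 9.14 for those clusters and 0.381 with narrowed windows. Narrowing removes the sites near the downstream ends by construction, and the cause of the other changes was not tested. The density alternatives, and counting near-identical reads as 1 for clusters (26 in Rbfox1), were added after the data were seen. No paired analysis was possible because there was a single library for each antibody. Alternatives on transcript regions and the GCAUG element were not run. The 569 control reads, and the filter that removed isolated reads, limit every comparison of antibodies.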

Other observations

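Clusters whose crosslink positions all lay exactly 2 nt apart, as in 4 Rbfox1 clusters, were also found elsewhere in the anti-Rbfox1 library. There were 118 among 4745 clusters of at least 3 positions (2.49%), and in 90 of them all reads ended at 1 base. Their share was 9.89% in block 1, 14.9% in block 3, 0.784% in block 4, 1.47% in block 6 and 0.476% in block 9. On the plus strand of block 3 outside the Rbfox1 window, 9 of 60 such clusters (15.0%) had this spacing. In blocks 1 and 3 only 1 read is kept per leftmost base, and on the minus strand there reads cannot share a 3′ end, so the count with 1 common end covers the plus strand of those blocks. The pattern was seen first in Rbfox1 and then counted, and the sequence at these sites was not examined.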
